A study of Mus musculus with 17 samples.

Results

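The enzymes of de novo lipogenesis, the making of fatty acids from carbohydrate in the cytosol, were followed through perigonadal white adipose tissue (pWAT) by 10 genes chosen by name out of 55401 genes in the files. They were *Slc25a1*, *Acly*, *Acss2*, *Me1*, *Acaca*, *Acacb*, *Thrsp*, *Mid1ip1*, *Fasn* and *Elovl6*, and all 10 were found and passed the filter on low counts in both sexes. The study asked whether loss of the long non-coding RNA U90926 alters adipose tissue, and its mRNA libraries covered 10 females (5 WT, 5 U9-KO) and 7 males (3 WT, 4 U9-KO). WT mice were C57BL/6J, and U9-KO mice were homozygous for a deletion of every exon of *U90926* on the same background. The mice were littermates from heterozygous crosses, were fed standard chow and were killed at 16 weeks of age by the study's methods. The study's phenotyping scheme ran to 19 weeks. The labels named no treatment, but the phenotyping cohort underwent food withdrawal, blood sampling and a glucose tolerance test. Whether the mice had been fasted when pWAT was taken was not given in the sources used here. Each library came from 1 mouse, and the labels did not state that a number tied a WT to a U9-KO mouse.

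Fatty acid synthesis starts from citrate, which leaves the mitochondrion and is split in the cytosol to acetyl-CoA. Acetyl-CoA carboxylase turns acetyl-CoA into malonyl-CoA, and fatty acid synthase joins these units with NADPH as the reductant until palmitate is released. The genes are induced by insulin and glucose, largely through SREBP-1c and ChREBP, and fall in fasting. In mouse adipose tissue the pathway responds strongly to feeding.

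The libraries held an estimated 19700000 to 27600000 counted reads each, so counting error was small for each of these genes. The deposited values were counts normalized by size factors, set separately for females and males, so levels were tested only within a sex. *U90926* was at 0 in all 9 U9-KO mice and reached 1 normalized count in 1 of 5 WT females and 1 of 3 WT males, too few to check the genotype labels. The adipocyte markers were abundant in each library: the sum of the 12 markers lay between 346142 and 862814 in females, and males had 735476 to 1020044. The ovary and oviduct markers ran from 4652 to 141178 in females, with WT female 4 (127429) and U9-KO female 1 (141178) far above the others. Those libraries also had the lowest adipocyte marker sums among females, 355088 and 346142. The ovary and oviduct markers summed to 290 to 531 in males, and the epididymis markers, of which 6 of 7 were found, to 0 to 3. Values below are normalized counts unless a scale is named, and mice are listed in the order of their label numbers.

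The lipogenic genes were among those that differed most between mice of the same genotype, at or above the percentile of 94.4 in either sex. Together they took 0.257% of all normalized counts in WT female 3 and 6.03% in U9-KO female 3. In males the share ran from 0.429% in WT male 2 to 2.08% in WT male 1. Among 12497 genes with a mean of at least 100 in females, the SD of log2 values within genotypes placed the members between rank 30 (*Elovl6*) and rank 699 (*Mid1ip1*). Among 11751 such genes in males they took ranks 58 (*Fasn*) to 253 (*Slc25a1*). The median SD of all these genes was 0.22 in females and 0.14 in males. In males the spread of the members lay mostly in the 3 WT mice. There the SD of a member was 58.2% to 89.7% of its mean, against 5.76% to 26.7% in the 4 U9-KO males. In bulk tissue, fewer cells of a type and less RNA per cell cannot be told apart.

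**Figure D1:**
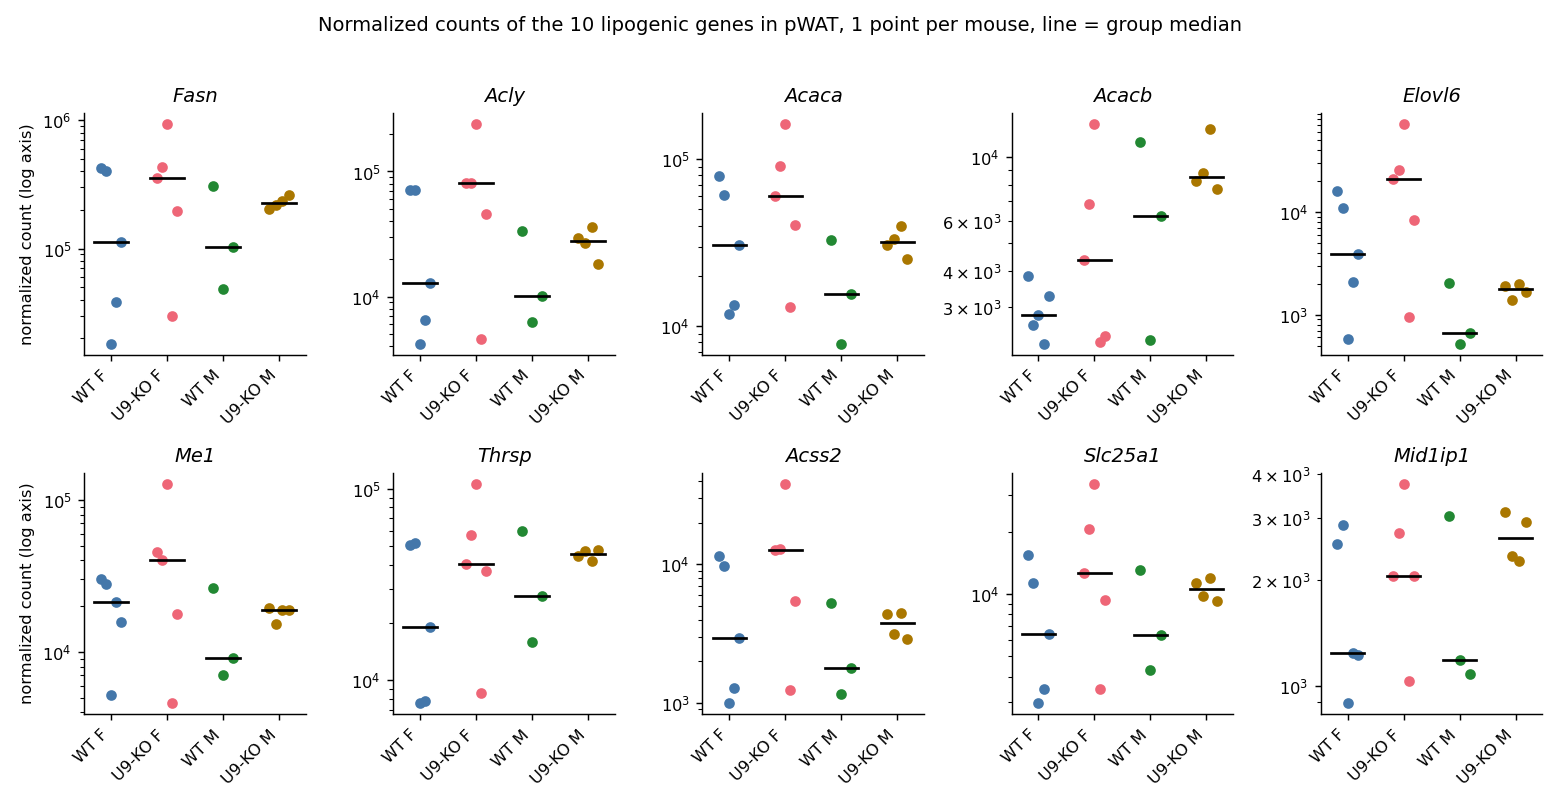
Normalized counts (log axis) of the 10 lipogenic genes in pWAT, with 1 point per mouse, mice spread from left to right in label order, and a line at the median of each of 4 groups (WT F, U9-KO F, WT M, U9-KO M). Females spread over 4.21-fold to 123-fold from the lowest to the highest mouse, U9-KO males lie close together, and WT and U9-KO points overlap in every panel.

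A first set of members supplies acetyl-CoA. *Slc25a1* (chr16:17925223-17928219, minus strand, GRCm38) encodes the mitochondrial citrate carrier. It stood at 15474, 11376, 2964, 3473 and 6447 in WT females and at 12631, 20566, 34153, 3472 and 9379 in U9-KO females. In males it was 13141, 4297 and 6379 in WT and 11322, 9848, 12042 and 9307 in U9-KO. Low and high females occurred in both genotypes, and WT male 1 was the highest male. *Acly* (chr11:100476353-100528000, minus strand), which encodes ATP citrate lyase, the enzyme that splits citrate, had a wider range. Its levels were 71244, 71647, 4196, 6514 and 12899 in WT females and 80469, 80755, 238318, 4578 and 45510 in U9-KO females, 56.8-fold from the lowest to the highest. In males *Acly* was 33232, 6286 and 10164 in WT and 29295, 26652, 35945 and 18160 in U9-KO. Each genotype thus held both low and high females, while the lowest 2 males were WT. *Acss2* (chr2:155517948-155585724, plus strand), whose enzyme makes acetyl-CoA from acetate, ran from 993 in WT female 3 to 37999 in U9-KO female 3 with a median of 7556, and from 1170 in WT male 2 to 5251 in WT male 1. Its exons overlap those of *Ggt7*, *Gss* and *Acss2os* on the other strand, as those of *Elovl6*, *Me1* and *Mid1ip1* overlap antisense genes, and the strand setting of the counting was not given in the sources used here.

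*Me1* (chr9:86581371-86695953, minus strand) encodes cytosolic malic enzyme, a source of NADPH. It stood at 30013, 27837, 5224, 21222 and 15726 in WT females and at 45173, 40172, 127593, 4574 and 17720 in U9-KO females. In males it was 26273, 7015 and 9082 in WT and 19532, 15278, 18914 and 18982 in U9-KO. *Me1* departed from the other members in WT female 4, which ranked 6 of 10 for *Me1* but 8 of 10 for *Fasn*, *Acly*, *Acaca*, *Elovl6*, *Acss2* and *Slc25a1*. That library was among the 2 with the most ovary and oviduct marker RNA. *Me1* per *Fasn*, both per kb of exon, was 1.56 in WT female 4, 0.363 in the other ovary-rich library, U9-KO female 1, and 0.199 to 0.824 in the remaining 8 females. Without both libraries, Pearson's r of *Me1* with the mean of the other 9 members rose from 0.91 (10 females) to 0.98 (8 females). The part of ovary RNA in the *Me1* values was not tested.

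The acetyl-CoA carboxylases were less alike in females (r = 0.79, n = 10) than most pairs of members, mainly through the WT mice. *Acaca* (chr11:84129672-84401651, plus strand) encodes the cytosolic enzyme ACC1 that feeds synthesis. Among females it was 78806, 61314, 11773, 13343 and 30658 in WT mice and 60222, 90356, 161606, 13009 and 40377 in U9-KO mice. Among males the WT mice had 32822, 7848 and 15518, and the U9-KO mice had 30581, 33073, 39855 and 25261. *Acacb* (chr5:114146535-114250761, plus strand) encodes ACC2 at the mitochondrial surface, whose malonyl-CoA restrains fatty acid import for oxidation. *Acacb* lay between 2230 and 3835 in all 5 WT females, and was 4386, 6845, 13019, 2270 and 2383 in U9-KO females. WT female 1, with 78806 for *Acaca*, and WT female 3, with 11773, thus had 3835 and 2806 for *Acacb*. In males *Acacb* followed *Acaca*, with 11326, 2301 and 6227 in WT and 8255, 8787, 12554 and 7744 in U9-KO. Since a ratio within a library does not depend on its scale, *Acaca* over *Acacb* per kb could be set side by side in the sexes. It was 2.37 to 13.3 in females (median 7.22) and 1.41 to 2.12 in males (median 1.84), with no overlap. The ratio was chosen after its values were seen and was not tested, and both lengths count every annotated exon.

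*Thrsp* and *Mid1ip1* encode Spot 14 and its paralog MIG12, small proteins without enzyme activity of their own; MIG12 promotes polymerization of acetyl-CoA carboxylase. *Thrsp* (chr7:97412938-97417730, minus strand) was 50620, 52132, 7567, 7776 and 18973 in WT females and 40328, 57664, 106108, 8631 and 37415 in U9-KO females. In males it was 60067, 15913 and 27465 in WT and held within 42088 to 47618 in the 4 U9-KO mice. *Mid1ip1* (chrX:10715013-10719690, plus strand) had the narrowest range of the 10 genes in females and in males, 4.21-fold and 2.89-fold. Female values were 2535, 2866, 890, 1239 and 1225 for WT and 2057, 2712, 3751, 1033 and 2047 for U9-KO. Male values were 3044, 1184 and 1076 for WT and 3109, 2333, 2260 and 2921 for U9-KO. Thus 2 of 3 WT males, WT males 2 and 3, lay below all U9-KO males, as they did for each of the 10 genes. Per kb of exon the pair differed widely, with *Thrsp* 6.10 to 27.5 times as high as *Mid1ip1* in females and 13.1 to 24.8 times as high in males.

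*Fasn* (chr11:120805846-120824547, minus strand), which encodes fatty acid synthase, had the highest normalized count of the 10 genes in each library. It was 423472, 398953, 18029, 38582 and 112571 in WT females and 353643, 429828, 931443, 29690 and 196207 in U9-KO females. In males *Fasn* was 308595, 47950 and 102942 in WT and 203465, 219208, 233541 and 261989 in U9-KO. The 4 U9-KO males lay within the range of the 3 WT males. Per kb of exon *Fasn* had the highest median in females (25114, followed by *Thrsp* at 17758 and *Acly* at 11058). In males the medians of *Thrsp* (20268) and *Fasn* (20025) were close, and *Acly* (5049) followed. The lowest medians per kb belonged to *Acacb* in females (316) and to *Elovl6* in males (259.5).

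*Elovl6* (chr3:129532355-129638495, plus strand) encodes the elongase that extends palmitate to stearate, and it varied most of the 10 genes in females. Its values were 15997, 10963, 581, 2099 and 3856 in WT females and 20976, 25681, 71337, 942 and 8260 in U9-KO females, 123-fold from WT female 3 to U9-KO female 3. In males it was 2037, 519 and 658 in WT and 1892, 1379, 1971 and 1669 in U9-KO, a 3.92-fold range. *Elovl6* over *Fasn* per kb was 0.0468 to 0.130 in females (median 0.068) and 0.0107 to 0.0184 in males (median 0.0112), again without overlap between the sexes. This ratio too was chosen after its values were seen and was not tested.

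The females kept a similar order for most of the genes, whereas the order of the U9-KO males changed from gene to gene. U9-KO female 3 was the highest female for 10 of 10 members, and WT female 3 the lowest for 8 of 10. U9-KO female 4 was among the lowest 3 females for 10 of 10 and WT female 4 for 8 of 10. Averaged over the 10 genes, the log2 value relative to the mean of the females ran from -2.07 to 0.86 in WT and from -1.86 to 2.30 in U9-KO. Among males, WT male 2 was lowest for 9 of 10 members and WT male 3 for *Mid1ip1*, while WT male 1 was highest for 6 of 10. The mean log2 deviation of WT males ran from -1.36 to 0.68, and that of U9-KO males only from 0.22 to 0.51. Most and least lipogenic mice therefore included both genotypes in females, and in males both ends were WT.

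**Figure D2:**
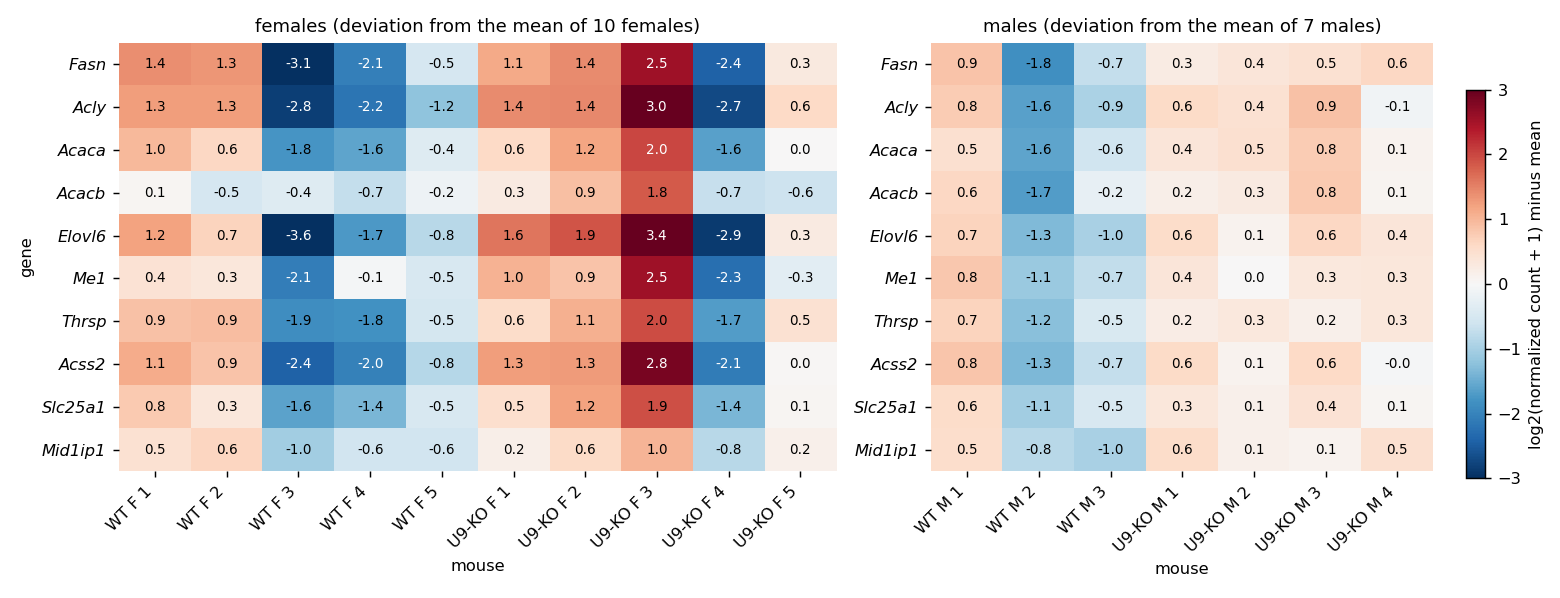
Deviation of log2(normalized count + 1) from the mean of the 10 females (left) and of the 7 males (right), with 1 row per gene, 1 column per mouse and the value printed in each cell. WT female 3, WT female 4 and U9-KO female 4 are low and U9-KO female 3 is high across nearly all rows, and among males WT male 2 and WT male 3 are low in each row.

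Across mice the members moved together. Pearson's r over the 10 females, on log2(normalized count + 1), had a median of 0.97 over the 45 pairs, and 37 of 45 pairs reached 0.8. Each of the 8 pairs below 0.8 contained *Acacb*, down to 0.68 for *Acacb* with *Mid1ip1*. Without *Acacb* the lowest pair stood at 0.85. The median was 0.96 with genotype means removed and 0.94 without the 2 females farthest from the median, WT female 3 and U9-KO female 4. Slopes ran over a wide range: per log2 unit of the mean of the other 9, *Elovl6* changed by 1.62, *Acly* by 1.48 and *Fasn* by 1.37, but *Mid1ip1* by 0.45 and *Acacb* by 0.41.

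In males the pattern rested on 2 mice. Over the 7 males the median r was 0.94, 44 of 45 pairs reached 0.8, and the lowest was again *Acacb* with *Mid1ip1* (0.70). Spearman's rho had a median of 0.75. Without WT male 2 and WT male 3, the 2 low males, the median r over the remaining 5 mice was 0.42 and the lowest pair, *Acaca* with *Mid1ip1*, stood at -0.66. These coefficients describe genes read in the same libraries, with shared depth and shared tissue composition, and the genes were chosen partly for moving together.

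**Figure D3:**
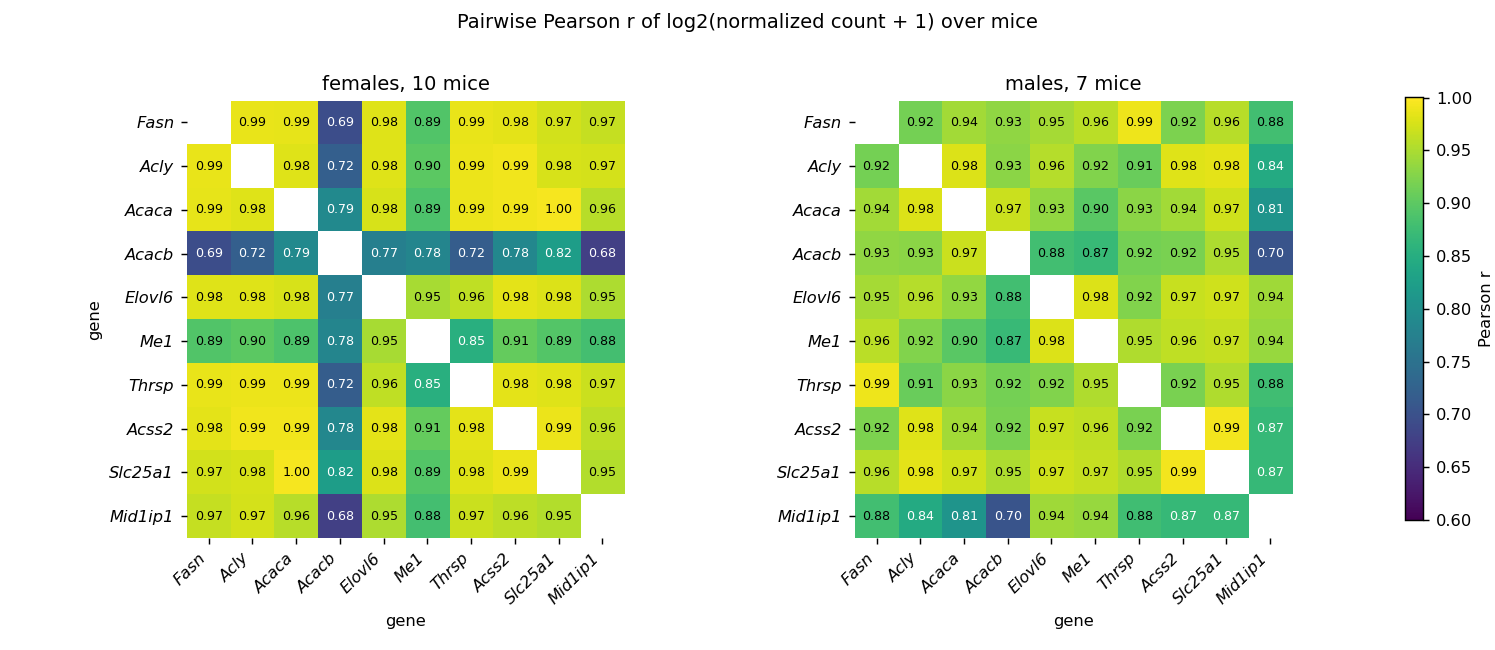
Pearson's r of log2(normalized count + 1) for each of the 45 pairs of lipogenic genes over 10 females (left) and 7 males (right), printed in the cells and coloured from 0.6 to 1. The lowest values stand in the *Acacb* row among females (down to 0.68) and in the *Mid1ip1* row among males (down to 0.70, with *Acacb*).

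Because the genes moved together, the sequences upstream of their start sites were read for letters bound by known lipogenic factors. RefSeq windows for GRCm38.p6 matched all 10 members (11 windows, since *Me1* has 2), and the 250 bases before the start were searched on both strands for 4 motifs. The E-box CACGTG was found in 1 member, *Slc25a1*, and in 6.02% of all 32851 windows. The NF-Y letters CCAAT were found in windows of 6 members and in 33.8% of all windows, and the Sp1 letters GGGCGG in 5 members and in 32.7% of all. The sterol element core CACNCCA was found in *Slc25a1* and *Mid1ip1* and in 15.6% of all. Windows of *Fasn* (chr11:120824548-120824797), *Acly* (chr11:100528001-100528250) and *Slc25a1* (chr16:17928220-17928469) are shown because they end at the annotated start and hold the most matches of one kind or of several kinds. All 3 genes lie on the minus strand, and each window is written 5′ to 3′ along the gene, with letters matching a motif on either strand in capitals.
Fasn: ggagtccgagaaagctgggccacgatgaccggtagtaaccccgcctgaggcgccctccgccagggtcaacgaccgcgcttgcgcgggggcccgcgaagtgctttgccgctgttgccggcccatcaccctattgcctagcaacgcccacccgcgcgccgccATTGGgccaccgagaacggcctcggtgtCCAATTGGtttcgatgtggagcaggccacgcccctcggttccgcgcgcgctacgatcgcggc
Acly: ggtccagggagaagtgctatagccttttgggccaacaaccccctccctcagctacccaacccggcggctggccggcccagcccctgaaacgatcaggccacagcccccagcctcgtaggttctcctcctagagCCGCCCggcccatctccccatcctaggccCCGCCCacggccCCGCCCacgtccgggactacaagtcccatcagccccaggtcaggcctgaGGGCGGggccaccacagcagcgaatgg
Slc25a1: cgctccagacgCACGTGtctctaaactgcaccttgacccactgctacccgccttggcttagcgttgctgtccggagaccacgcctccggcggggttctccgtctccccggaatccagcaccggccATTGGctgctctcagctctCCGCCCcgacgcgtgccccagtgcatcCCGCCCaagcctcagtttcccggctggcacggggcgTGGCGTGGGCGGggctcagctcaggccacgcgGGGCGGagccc
*Fasn* carried CCAAT letters 3 times, a pair of them sharing bases in CCAATTGG. *Acly* carried the Sp1 letters 4 times and none of the other motifs. *Slc25a1* held all 4 motifs, and its sterol core shared bases with an Sp1 match in TGGCGTGGGCGG. No match to any of the 4 was found for *Elovl6* or for *Acaca*. The RefSeq windows of *Acaca*, *Acacb* and *Mid1ip1*, and 1 of the 2 for *Me1*, lie inside the longer GENCODE genes. The CCAAT letters of *Acacb* and *Me1* and the sterol core of *Mid1ip1* were found in such windows. Those of *Thrsp* and *Acss2* lie partly inside the GENCODE genes, and their CCAAT letters fall in that part. The matches describe letters only, and the members' counts stand beside frequent motifs.

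U9-KO against WT was then compared within each sex by limma on log2(normalized count + 1), with Benjamini-Hochberg adjustment over all genes tested. The study's own analysis, with DESeq2, called some genes in each sex at an adjusted p under 0.05. The calls counted below are those of limma on normalized values and may differ from it. The contrast of U9-KO with WT was part of how the members were chosen, so their values are a description. In females 0 of 10 members were called at an adjusted p under 0.05, as were 0% of 24825 genes. At an unadjusted p under 0.05 there were 0 members and 553 genes, 2.23% of all, and 1.24% of all were higher in U9-KO. All 10 fold changes were above 0, against 49.9% of all genes, with a median of 0.94 on the log2 scale. The SE was large beside the change: 1.70 (SE 1.14) for *Elovl6*, 1.33 (SE 0.92) for *Acss2*, 1.19 (SE 1.04) for *Fasn*, 0.68 (SE 0.42) for *Acacb* and 0.43 (SE 0.38) for *Mid1ip1*, each with an adjusted p of 1 by limma. WT and U9-KO values overlapped for all 10 genes, while groups without overlap and higher in U9-KO made up 0.169% of all genes. Without U9-KO female 3 the median change was 0.57, and without U9-KO female 4 it was 1.44. Since the 10 genes share their order of mice, their 10 directions are not separate observations.

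In males 0 of 10 members were called, as were 0% of 21930 genes. At an unadjusted p under 0.05 there were 4 members (*Acaca*, *Elovl6*, *Mid1ip1* and *Acly*) and 1667 genes, 7.6% of all, and 3.51% of all were higher in U9-KO, as these 4 were. All 10 fold changes were again above 0, against 50.1% of all genes, with a median of 0.75. They ran from 0.57 (SE 0.30) for *Slc25a1* to 1.06 (SE 0.46) for *Acly*, with *Acaca* at 1.00 (SE 0.38), *Fasn* at 0.99 (SE 0.49) and *Elovl6* at 0.95 (SE 0.38), and limma's adjusted p lay between 0.614 and 0.701. Values of WT and U9-KO overlapped for all 10, through WT male 1, while non-overlapping groups higher in U9-KO made up 3.8% of all genes.

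This contrast turned on WT male 1. Without it 9 of 10 members were called, all but *Acacb*, against 0.331% of 21467 genes. Their log2 fold changes were then 1.01 (*Slc25a1*) to 1.74 (*Acly*), with limma's adjusted p between 0.0246 and 0.0466, and the median of the 10 was 1.30. The 71 genes called there included 45 that were higher in U9-KO. Those values set 4 U9-KO males against WT males 2 and 3 alone, the males with the lowest lipogenic values. Without WT male 2 instead, the median was 0.30 and 0 members were called.

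**Figure D4:**
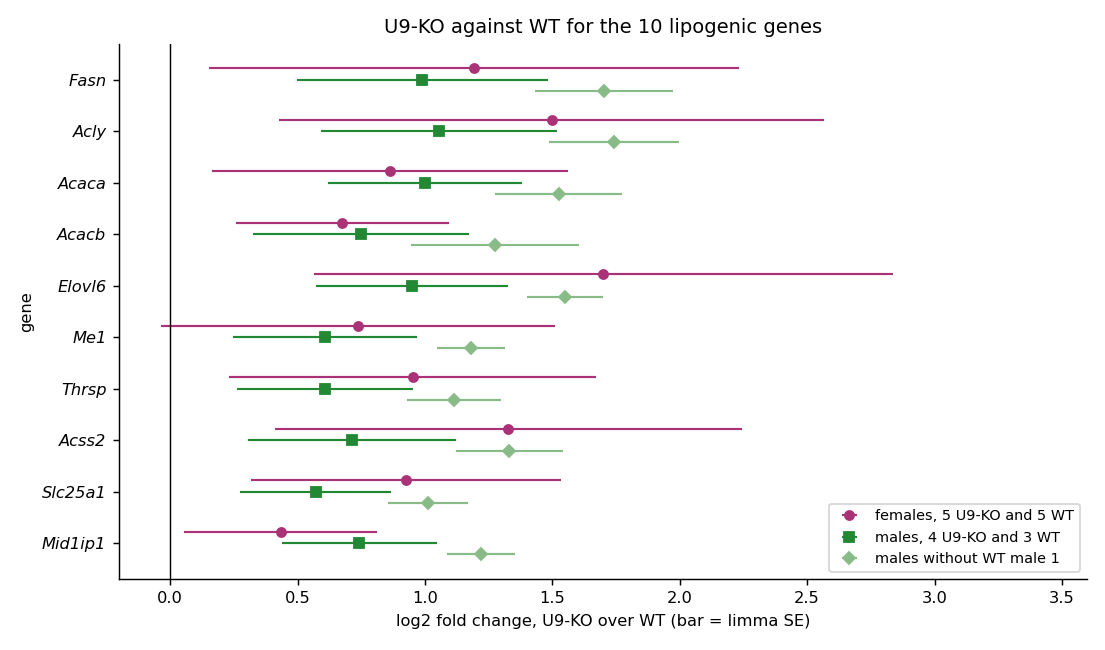
Log2 fold change of U9-KO over WT for each of the 10 lipogenic genes, with bars of 1 limma SE, in 5 against 5 females (circles), 4 against 3 males (squares) and males without WT male 1 (diamonds). All points lie above 0; the female bars are mostly the widest, and the male values rise to 1.01 to 1.74 without WT male 1.

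The sexes were not shown to differ in this contrast. The interaction term over all 17 mice, male minus female change, ran from -0.75 to 0.31 on the log2 scale over the members, with an adjusted p of 1 by limma for each. Over all genes it called 0% of 26289.

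Markers of other cell types moved with some of these values. In males the 6 macrophage markers summed to 36012 in WT male 2, 25604 in WT male 3 and 21374 in WT male 1, and to 15673 to 20737 in U9-KO males. Each of the 6 ran against the members, with r from -0.92 to -0.82 over 7 males, where 47.2% of all genes had r below 0. Without WT males 2 and 3 these values ran from -0.77 (*Mrc1*) to 0.57 (*Itgam*), with *Lyz2*, the most abundant, at 0.20, so this relation rested on those mice too. In females the same sum was 10740 to 20601 in WT and 9824 to 19010 in U9-KO, the median r was -0.13, and 5 of 6 markers had r below 0, as did 46.4% of all genes. The lowest r in females was that of *Cd68*, -0.90, and -0.91 without WT female 3 and U9-KO female 4. The other macrophage markers lay between -0.32 (*Adgre1*) and 0.01 (*Csf1r*). The sum of the 12 adipocyte markers, to which *Cfd* and *Fabp4* contributed most, varied 2.49-fold in females and 1.39-fold in males. *Lep*, which encodes leptin, ran from 1160 in WT female 3 to 17220 in WT female 2, a range wider than that of several members. *Adipoq*, which encodes adiponectin, was 72328 in WT female 1 and 53506 in WT female 3, the mice with 423472 and 18029 for *Fasn*. Its r with the members was 0.36 over females and 0.70 over males. As a list, the 12 adipocyte markers rose with the members: their mean log2 value had r = 0.66 over females and 0.67 over males. Of the 12, 2 reached r of 0.8 in each sex, *Retn* being highest in females (0.88) and *Cebpa* in males (0.91), while 2 had r below 0. In females the mean log2 value of the 5 mesothelial markers had r = -0.62 with the members, and their sum was 7504 to 11959 in WT and 6085 to 13522 in U9-KO. The 5 muscle markers had r = -0.78, with sums of 241 to 595 and 69 to 254, but only 1 of them, *Acta1*, had a mean of at least 100. Over males r was 0.04 for the mesothelial and 0.43 for the muscle markers, so neither relation was seen there. For the 6 brown and beige adipocyte markers r was 0.83 in females and 0.75 in males, with 3 of 6 at that mean in each sex. The 7 B and plasma cell markers had r = 0.46 in females, with sums of at most 1489 in WT and 4011 in U9-KO. In males 0 of 7 B and plasma cell markers were higher in U9-KO, with a median log2 fold change of -0.95 and r = -0.53, and their sum was 628 to 2268 in WT and 452 to 1175 in U9-KO. None of these marker genes was called by limma in either sex. The part of these cell types in the members' values was not tested.

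Genes around the pathway, 61 in all from 6 lists, were examined in the same way, and 0 of 61 were called in either sex. Those with r of at least 0.8 with the mean of the members numbered 39 of 60 with enough counts in females, against 13% of all genes, and 29 of 60 in males, against 10.8%. Without the 2 farthest mice these numbers were 36 of 60 in females, against 11.6% of all genes, and 11 of 60 in males, against 6%. Since these lists hold partners of the members by design, the shares are a description.

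Regulators of the pathway split. *Srebf1*, encoding SREBP-1, moved with the members in females (r = 0.94, n = 10), from 3242 in WT female 3 to 23376 in U9-KO female 3. In males it ran from 6576 in WT male 2 to 17276 in WT male 1 (r = 0.94, n = 7, and 0.53 without WT males 2 and 3). *Insig1*, encoding a sterol-regulated anchor of SREBP and itself an SREBP target, had r = 0.98 in females and 0.76 in males. *Mlxipl*, encoding ChREBP, had r = 0.93 and 0.90. *Srebf2*, which encodes the SREBP of cholesterol synthesis, did not follow (r = 0.28 and 0.34), with 1916 to 3320 in females. *Usf1* lay between 888 and 1063 in females (r = -0.02). Only 4 of the 12 regulators reached r of 0.8 in females and 3 of 12 in males.

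Genes of glucose handling moved with the members in females. All 18 genes from glucose entry through glycolysis to mitochondrial citrate had r of at least 0.8 in females, with a median of 0.95, and 13 of 18 did in males (6 of 18 without WT males 2 and 3). *Pcx*, encoding pyruvate carboxylase, ran from 20231 in WT female 4 to 127062 in U9-KO female 3, and *Aldoa*, encoding aldolase A, from 11467 to 50261. In the NADPH list, 5 of 6 genes reached 0.8 in each sex, but 0 of 6 in males without WT males 2 and 3. The list was led in level by *Tkt*, encoding transketolase, and *Pgd*, encoding 6-phosphogluconate dehydrogenase. *Tkt* was 6416 in WT female 3 and 117488 in U9-KO female 3, and 7519 in WT male 2 and 27192 in WT male 1. Of the 7 esterification genes, 5 reached 0.8 in females and 4 in males (0 without WT males 2 and 3). *Dgat2*, which encodes the enzyme adding the last fatty acid to triglyceride, went from 5650 to 92090 in females (r = 0.97), but in males r was 0.53 and was -0.90 without WT males 2 and 3. *Acsl1*, encoding an acyl-CoA synthetase, had r = 0.13 in females. Of 9 kinase and insulin signalling genes, 2 reached 0.8 in females and 1 in males, and *Akt2* and *Insr*, the most abundant, had r = 0.75 and 0.17 in females.

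*Scd1*, encoding the desaturase that acts on the products of *Fasn* and *Elovl6*, parted from the members in males. In females *Scd1* was 552069, 402277, 85092, 131556 and 205500 in WT and 456277, 495714, 1353006, 112234 and 211873 in U9-KO, with r = 0.98. In males it was 536320, 883534 and 597501 in WT and 617058, 555907, 639963 and 591082 in U9-KO. The male with the lowest *Fasn*, WT male 2, thus had the highest *Scd1*, and the male with the highest *Fasn*, WT male 1, the lowest. Over 7 males r was -0.79, and it was -0.14 without WT males 2 and 3, so the inverse relation rested on those mice. *Scd1* over *Fasn* per kb was 41.2 in WT male 2, 13.0 in WT male 3 and 3.89 to 6.79 in the other 5 males. In females this ratio was 2.26 to 10.6, highest in the 3 mice with the least *Fasn*. *Scd2* had r = 0.90 in females and 0.79 in males.

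**Figure D5:**
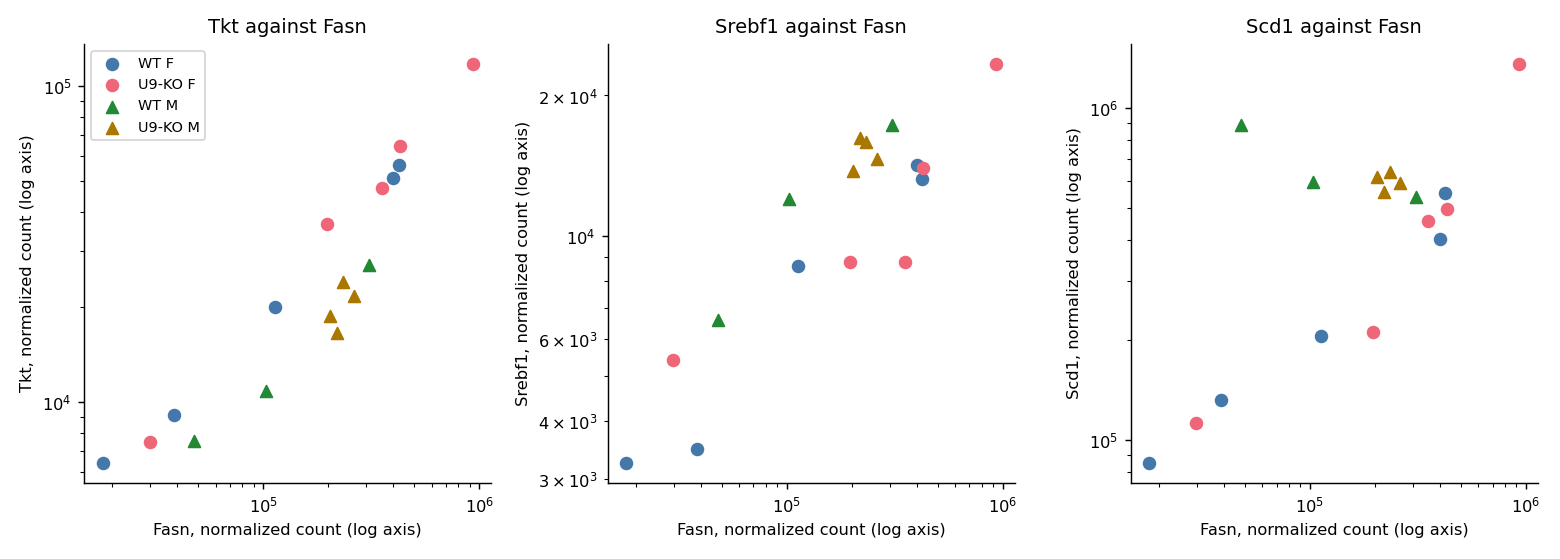
*Tkt*, *Srebf1* and *Scd1* (vertical) against *Fasn* (horizontal), in normalized counts on log axes, with 1 point per mouse, circles for females and triangles for males, coloured by group. *Tkt* and *Srebf1* rise with *Fasn* in both sexes, whereas *Scd1* rises with *Fasn* in females (r = 0.98 with the mean of the members) but is highest, at 883534, in the male with the least *Fasn*.

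Genes of the fasting response were read beside the members, since the fed state was not given. *Cpt1a*, encoding the enzyme that admits fatty acids to mitochondria, ran from 1208 in U9-KO female 3 to 4149 in WT female 4, with r = -0.83 over females. It was also high in WT female 3 (3064) and U9-KO female 4 (3025), which were low in the members. WT female 5 had 3064 as well, and U9-KO female 1 had 2756 with a mean log2 deviation of 0.85 for the members. WT female 4 and U9-KO female 1 were the ovary-rich libraries, and the part of ovary RNA in *Cpt1a* was not tested. *Pdk4* and *Angptl4*, induced by fasting in many tissues, had r = -0.43 and -0.30 over females, and *Acadm*, encoding an acyl-CoA dehydrogenase, had r = 0.75. In males r was -0.76 for *Cpt1a* (n = 7), and -0.23 without WT males 2 and 3. The list did not move as one in males, with r = -0.13 for *Pdk4*, -0.15 for *Angptl4* and 0.92 for *Acadm*. The part of feeding in the members' values was not tested.

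Among 11506 genes with a mean of at least 100 in each sex, those whose log2 values over the 17 mice, centred within sex, were most like the mean of the members were *Tkt* (r = 0.99), *Gm5182* (r = 0.99), *Aacs* (r = 0.98), *Pdhb* (r = 0.98) and *Sorl1* (r = 0.98). *Aacs* encodes acetoacetyl-CoA synthetase, *Pdhb* a subunit of pyruvate dehydrogenase and *Sorl1* a sorting receptor. *Gm5182* is annotated as a processed pseudogene, so its reads may belong to a related gene. *Sorl1* spanned 1253 to 11366 in the females and 345 to 1253 in the males, and without the 2 farthest mice of each sex r was 0.99 and 0.95. In males without WT males 2 and 3, r was 0.78 for *Tkt*, 0.68 for *Gm5182*, 0.88 for *Aacs* and 0.65 for *Pdhb*. The most opposite genes were *Loxl3* (r = -0.95), which encodes a lysyl oxidase-like enzyme, *Zfp512* (r = -0.94) and *Eps8* (r = -0.93). In males without those mice r was -0.94 for *Zfp512*, -0.33 for *Eps8* and 0.11 for *Loxl3*, whose inverse direction was thus lost. *Loxl3* spanned 268 to 634 in females.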

How the data were processed

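mRNA of whole pWAT from 17 mice was sequenced from directional libraries. The authors trimmed reads with trim_galore, aligned them with STAR 2.7.3a to GRCm38, assigned them to genes by summarizeOverlaps (Union mode) and normalized the counts with DESeq2 1.28.1; the annotation was not given in the sources used here. The deposited values are a score, normalized counts that the authors rounded to whole numbers, so a count model was not used. The single-sample tables were read, and the series table, which repeats them with other replicate numbers for 2 male columns, was not used. Counted reads per library were estimated from the whole numbers that the rounding skips or doubles. Symbols, positions and exon lengths came from GENCODE M21, which named 55141 of 55401 gene IDs.

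Values were tested as log2(normalized count + 1) with limma 3.58.1 in R 4.3.3 (trended empirical Bayes), within each sex and as an interaction over all 17 mice, on genes with a total of at least 10, and p-values were adjusted by Benjamini-Hochberg over all genes tested. The test was run on simulated data in which every gene had the same relative spread and varied independently. That run does not show how the test performs for the members, which spread widely and move together. Correlations used the same log2 values, and list and alikeness counts took genes with a mean of at least 100. Genes named beside the members were those on the gene lists, by level, and the 5 genes most and 3 least like the members; others were chosen after their values were seen. The members and lists were chosen with earlier results of these data known. p-values measure the spread between these mice. Alternatives changed the filter, pseudocount, scaling, variance model and block, and left out each mouse in turn. 1 gene of the lists is not reported here.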

Additional observations from a re-analysis of the deposited data

Results flagged for a closer look

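A single mouse standing far from its group was looked for in 33 sets of values from groups of 4 or 5, and 1 was found, where chance gives about 1.65. *Me1* in U9-KO male 2 stood at 15278, below the 18914 to 19532 of the other 3 U9-KO males. The gap to the next mouse was 0.855 of the range of the group.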

How the results depend on the processing

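Fold changes of all 10 members stayed above 0 in each sex under all alternatives run. With no variance trend, 1 gene was called in females (*Hfm1*, 0 to 5 normalized counts) and 1 in males (*4930583P06Rik*, 0 to 6), and without the filter 1 gene was called for the interaction (*Lrp8os1*, 0 to 3), none of them a member. Leaving out each male in turn gave 0 to 71 genes called, 0 to 9 members called and a median member change of 0.30 (without WT male 2) to 1.30 (without WT male 1), the 71 and the 9 only without WT male 1. The median pairwise r in males was 0.75 by Spearman and 0.88 to 0.95 with each male left out. Leaving out both ovary-rich female libraries, an alternative chosen after seeing the data, gave 0 calls, a median change of 0.67 and a median r of 0.98. Scaling to the adipocyte markers shifted the median of all genes in females by -0.15 and gave a median member change of 0.79. With the label number as a replicate block, 0 genes were called in either sex and the median member change was 0.94 in females and 0.83 in males. Deviations of same-numbered mice correlated at -0.48 to 0.22. Such values cannot show whether the numbers paired the mice, which the labels did not state. The lowest member value was 519 normalized counts, so counting error was small beside the spread between mice.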
